A study of Mus musculus with 2 samples.

Results

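Neuropilins and plexins are cell-surface receptors, and semaphorins are their ligands. The 9 genes described here are Nrp1, Nrp2, Plxna1, Plxna2, Plxna4, Plxnb2, Plxnd1, Sema4a and Sema4d, taken by symbol from the 32285 genes of the deposited count matrices, which list all 9. They were followed across marker-gated cell classes and between the 2 libraries of the series. Another 22 genes of the same families and 41 partner genes were listed beside them.

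Both libraries hold CD45 bead-sorted cells from subcutaneous xenografts of 143B, a human osteosarcoma cell line, in female nude mice that were 4 weeks old at inoculation. Nude mice lack a thymus and are deficient in T cells. One library came from mice given a human IgG1 isotype antibody (control IgG), and the other from mice given anti-CD3L1, a humanized IgG1 antibody against CD3L1 (ITPRIPL1). Both antibodies were given at 10 mg/kg every 3 days, 4 times. Each library pooled 3 tumors with no map from cells to tumors. Each group therefore had 1 sample, no difference between the groups could be tested, and every 95% interval below covers counting error only.

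As background, a neuropilin has a short cytoplasmic tail and acts as a co-receptor. It binds secreted class 3 semaphorins together with an A-type plexin, which carries the signal into the cell, and it also binds members of the VEGF family. Class 4 semaphorins such as Sema4a and Sema4d are membrane proteins that bind plexins and other immune receptors. The study addresses NRP2 on macrophages as a receptor for CD3L1.

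After quality filters 8557 control IgG cells and 11269 anti-CD3L1 cells were kept, with median depths of 5526 and 8267 UMIs (unique molecular identifiers, which count captured transcripts). Cells were gated by the list of markers they detected, and each class is named after its list. Macrophage-like cells numbered 483 and 4365, monocyte-like cells 989 and 2591, neutrophil-like cells 6346 and 753, NK-like cells 134 and 845, and dendritic-like cells 42 and 727. All 8 macrophage markers were detected in macrophage-like cells of both libraries. These markers set the gate, so their detection is no independent check of its name. Mrc1, Ms4a7 and Pf4 were detected in a smaller share of these cells with anti-CD3L1, and the other markers in a larger share. Pf4 was in 66.0% and 41.3% of them, and Trem2 in 67.9% and 74.5%. In the control IgG library the neutrophil markers reached the other classes too: a macrophage-like cell detected 3.68 of 8 on average and an NK-like cell 3.26, against 1.36 and 0.968 in the anti-CD3L1 library. Barcodes of 20 to 100 UMIs, which hold mostly free RNA, carried S100a8, S100a9 and Retnlg at 68837 CPM (UMIs of a gene per 1000000 UMIs of the class) in the control IgG library and at 1441 CPM in the anti-CD3L1 library. The libraries shared 26 cell barcodes.

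Nrp2, a receptor of Sema3f and VEGF-C, had its highest level among these 5 classes in macrophage-like cells of both libraries. That level was 414 CPM (95% interval 399 to 430) with control IgG and 337 CPM (332 to 343) with anti-CD3L1. In monocyte-like cells Nrp2 was at 248 CPM (239 to 256) and 293 CPM (286 to 300). The anti-CD3L1 library was therefore lower in macrophage-like cells and higher in monocyte-like cells, with intervals apart in both. Neutrophil-like cells had 63.9 and 147 CPM, dendritic-like cells 137 and 123 CPM, and NK-like cells 33.1 and 37.3 CPM. Macrophage-like cells stood first, monocyte-like cells next and NK-like cells last in each library, while neutrophil-like and dendritic-like cells changed places. Cells that took no class had 401 and 265 CPM. Of the pooled dendritic-like UMIs of Nrp2 with control IgG, plasmacytoid dendritic-like cells held 42 and mature dendritic-like cells 41 of 84. With anti-CD3L1, type 2 dendritic-like cells held 533 and mature dendritic-like cells 335 of 1020. The mature gate had 8 and 107 cells, and its Nrp2 level was above the pooled dendritic-like one in both libraries. It was near the macrophage-like level with control IgG and below it with anti-CD3L1. The pooled dendritic-like level therefore does not stand for the mature gate. The barcodes of free RNA held Nrp2 at 125 and 135 CPM.

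Nrp1, a receptor of Sema3a and VEGF-A, was at 44.2 CPM (39.3 to 49.5) in control IgG macrophage-like cells and at 60.9 CPM (58.6 to 63.3) in anti-CD3L1 macrophage-like cells. In monocyte-like cells it was at 12.5 CPM (10.6 to 14.6) and 52.3 CPM (49.3 to 55.5). The macrophage-like level was thus 3.54 times the monocyte-like level with control IgG and 1.16 times with anti-CD3L1. Dendritic-like cells had 30.9 and 33.6 CPM, and their intervals overlapped. Neutrophil-like cells had 2.78 and 24.7 CPM. NK-like cells held 0 UMIs in the control IgG library, where a floor of 3 UMIs is 1.81 CPM, and 29 UMIs or 3.53 CPM in the anti-CD3L1 library.

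**Figure D1:**
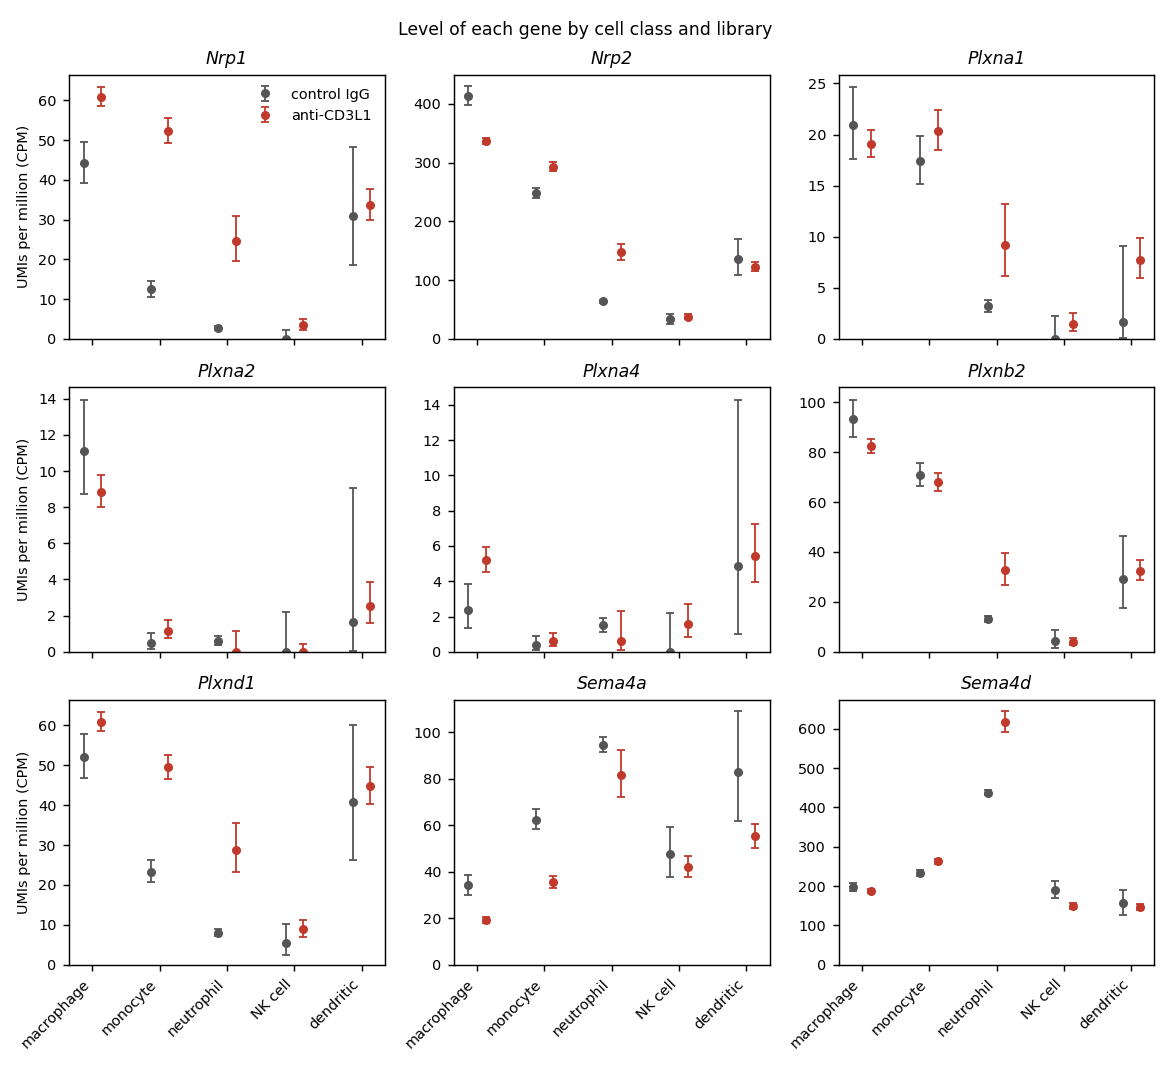
Level of each of the 9 genes in CPM (linear axis from 0, a different scale in each panel) by cell class. Grey points are the control IgG library and red points the anti-CD3L1 library, 1 library each, with exact 95% Poisson intervals as bars. Among the 5 classes plotted, Nrp1, Nrp2, Plxna2, Plxnb2 and Plxnd1 are highest in macrophage-like cells of both libraries, and Sema4a and Sema4d in neutrophil-like cells. Some of these stand first with intervals that overlap those of another class.

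Of the A-type plexins, Plxna1, which signals with neuropilins and also with Trem2 and Tyrobp, was at 20.9 and 19.1 CPM in macrophage-like cells and at 17.4 and 20.4 CPM in monocyte-like cells. Those 2 classes overlapped within each library. Plxna2, a receptor of class 3 semaphorins and of Sema6a, was far higher in macrophage-like cells, at 11.1 CPM (8.74 to 13.9) and 8.86 CPM, than in monocyte-like cells, at 0.468 and 1.18 CPM. Plasmacytoid dendritic-like cells of the anti-CD3L1 library had 9.34 CPM, close to the macrophage-like level. Macrophage-like cells held 65.8% and 78.6% of all Plxna2 UMIs in kept cells.

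Plxna4, a receptor of class 3 and class 6 semaphorins, was counted rarely. Macrophage-like cells held 16 UMIs (2.37 CPM) with control IgG and 223 UMIs (5.19 CPM) with anti-CD3L1. Monocyte-like cells held 5 and 13 UMIs. Its levels in dendritic-like cells, 4.88 and 5.42 CPM, overlapped the macrophage-like ones in both libraries. Within the dendritic gates of the anti-CD3L1 library Plxna4 was at 18.5 CPM in mature dendritic-like cells and at 8.46 CPM in type 1 dendritic-like cells, with 0 UMIs in plasmacytoid dendritic-like cells.

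In macrophage-like cells Plxnb2, a receptor of class 4 semaphorins, was at 93.4 CPM (86.2 to 101) and 82.4 CPM (79.8 to 85.2). It had 70.9 and 67.9 CPM in monocyte-like cells, and 4.21 and 3.89 CPM in NK-like cells. Macrophage-like cells stood above monocyte-like cells in both libraries with intervals apart. Plxnd1, the receptor of Sema3e, had a macrophage-like level of 52.0 CPM (46.7 to 57.7) and 60.9 CPM (58.6 to 63.3) and a monocyte-like level of 23.3 CPM (20.8 to 26.1) and 49.6 CPM (46.7 to 52.7). As for Nrp1, the class difference was wider in the control IgG library. Mature dendritic-like cells of the anti-CD3L1 library had Plxnd1 at 96.6 CPM (79.7 to 116), above the macrophage-like level there.

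Among the 5 classes the ligands were highest in neutrophil-like cells instead. Sema4d, known as CD100, which binds B-type plexins and Cd72, was at 437 CPM (431 to 444) and 618 CPM (591 to 646) in neutrophil-like cells. It was lower in monocyte-like cells, at 233 and 263 CPM, in macrophage-like cells, at 197 and 187 CPM, and in NK-like cells, at 191 and 149 CPM. Macrophage-like and NK-like cells overlapped in the control IgG library. Plasmacytoid dendritic-like cells had 313 and 367 CPM, above every other dendritic gate. Sema4a, which binds plexins and Tim-2, was at 94.7 and 81.8 CPM in neutrophil-like cells, 83.0 and 55.2 CPM in dendritic-like cells, and 34.1 and 19.2 CPM in macrophage-like cells. Neutrophil-like and dendritic-like cells overlapped for Sema4a in the control IgG library. Mature dendritic-like cells had the highest Sema4a of the 4 dendritic gates in the anti-CD3L1 library, at 114 CPM, above the neutrophil-like level there. Plasmacytoid dendritic-like cells had the lowest of the 4 gates, at 6.23 CPM.

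The classes were then compared within each library by log2 ratios of CPM. Macrophage-like over monocyte-like cells, 3 of 8 members with at least 50 UMIs were past 2-fold higher in the control IgG library (Nrp1, Plxna2 and Plxnd1), beside 11.9% of all genes. None was past 2-fold lower, beside 4.57% of all genes. In the anti-CD3L1 library 2 of 9 members were past 2-fold higher (Plxna2 and Plxna4), beside 7.44% of all genes, and 0 lower, beside 2.78%. The log2 ratio of Plxna2 was 4.57 with control IgG, on 6 monocyte-like UMIs, and 2.91 with anti-CD3L1. The ratio of Nrp1 was 1.82 (1.54 to 2.11) with control IgG and 0.22 (0.12 to 0.32) with anti-CD3L1. Sema4a was lower in macrophage-like cells by nearly the same amount in each library, with log2 ratios of -0.87 and -0.88.

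Macrophage-like over neutrophil-like cells, 6 of 9 members were past 2-fold higher with control IgG, beside 51.3% of all genes, and 7 of 9 with anti-CD3L1, beside 23.4%. The first share is near its background. The 2 ligands were past 2-fold lower in both libraries, beside 12.0% of all genes with control IgG and 9.56% with anti-CD3L1. Sema4d had log2 ratios of -1.15 (-1.23 to -1.07) and -1.72 (-1.80 to -1.65), and Sema4a of -1.47 and -2.09. All 7 receptors were higher in macrophage-like than in neutrophil-like cells of both libraries. Their intervals lay above 0 for each but Plxna4 in the control IgG library (0.67, -0.23 to 1.49). The median log2 ratio of all genes was itself 1.05 with control IgG and 0.43 with anti-CD3L1. Plxna4 with control IgG lay below that median. Plxna2 had 0 UMIs in anti-CD3L1 neutrophil-like cells. Against a floor of 3 UMIs it was 9.32-fold higher in macrophage-like cells there, and the interval of its log2 ratio began at 2.91.

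Within macrophage-like cells the 2 libraries differed less than 2-fold for 8 of the 9 members. Plxna4 was past 2-fold higher with anti-CD3L1, beside 6.00% of all 12612 genes tested, with a log2 ratio of 1.13 (0.40 to 1.96) on 16 and 223 UMIs. It was under 2-fold, at 0.70, without cells that detected at least 50% of another list, and at 0.98 where the neutrophil list was left out of that filter. The first filter removed 314 of 483 control IgG and 1269 of 4365 anti-CD3L1 macrophage-like cells, and the second 110 and 1221. Plxna4 was also under 2-fold in cells without a UMI of Folr2 (0.62), Mrc1 (0.87) or Arg1 (0.86). In cells with Arg1 it rested on 0 and 26 UMIs, so that its value of 0.84 took a floor of 3 UMIs, and its interval began at 0.43. No member was past 2-fold lower, beside 3.04% of all genes. The log2 ratio of Nrp1 was 0.46 (0.29 to 0.64) and that of Nrp2 was -0.30 (-0.35 to -0.24). Both neuropilins thus stood apart from equal levels in opposite directions. Plxnd1 had 0.23 (0.07 to 0.39) and Plxnb2 had -0.18 (-0.30 to -0.05). Sema4a had -0.83 (-1.04 to -0.61), and the intervals of Plxna1, Plxna2 and Sema4d held 0. The median over the 9 members was -0.13, beside 0.01 over all genes. When each cell was thinned to 1000 UMIs, the ratio of Nrp2 was -0.02 and that of Nrp1 0.11. Thinning gives cells equal weight but also leaves far fewer UMIs, and no interval was computed for these values.

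Few cells carried much of the Nrp2 signal. The median macrophage-like cell had 2 UMIs of Nrp2 in each library, but the top 10% of cells held 53.7% of the UMIs with control IgG, with up to 145 in a cell, and 38.0% with anti-CD3L1, with up to 47. After thinning to 1000 UMIs, Nrp2 was detected in 22.3% (18.6 to 26.3) of control IgG and 24.2% (22.9 to 25.5) of anti-CD3L1 macrophage-like cells, which overlapped. Before thinning the shares were 71.0% and 74.0%, and in NK-like cells 14.2% and 14.4%. The thinned share of NK-like cells was 2.99% and 2.61%. Nrp1 was detected in 4.79% and 5.85% of thinned macrophage-like cells, again overlapping, and in 33.3% and 34.8% before thinning. Median depth was 13969 UMIs in control IgG macrophage-like cells and 9537 in anti-CD3L1 ones. At 2000 UMIs per cell, 11 control IgG macrophage-like cells had both neuropilins where independent detection would give 16.5, and 179 anti-CD3L1 cells where it would give 186.

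**Figure D2:**
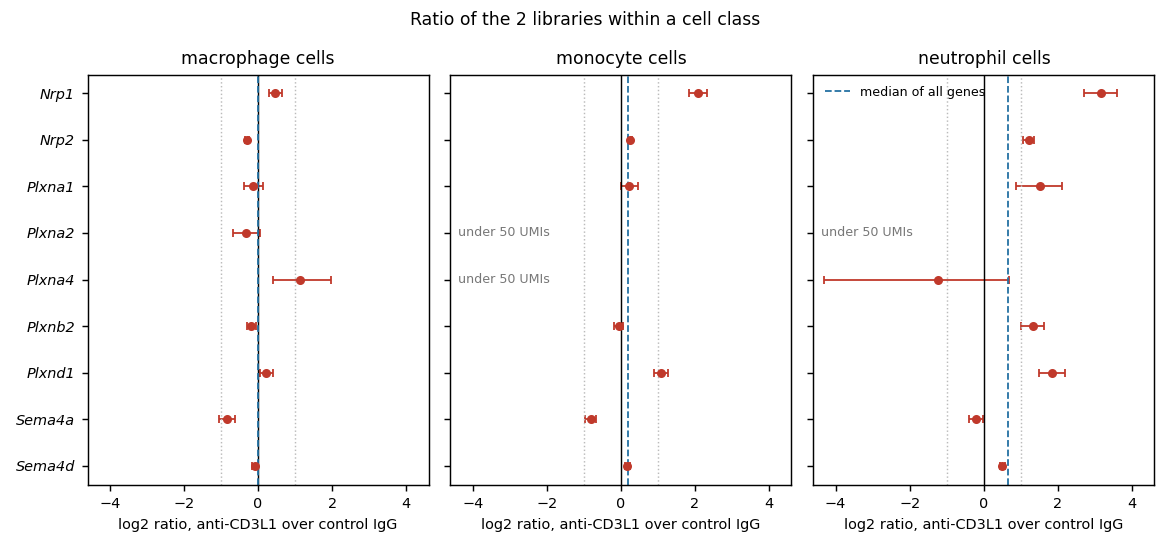
Log2 ratio of CPM, anti-CD3L1 over control IgG, for each gene in macrophage-like, monocyte-like and neutrophil-like cells, with exact 95% intervals as bars. The solid line marks equal levels, dotted lines 2-fold and the dashed line the median of all genes tested in that class. Nrp1 lies above the median in all 3 classes and Sema4a below it, while Nrp2 lies below it in macrophage-like cells.

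The Nrp2 difference was uneven among macrophage-like cells. Macrophage-like cells were split by a UMI of Mrc1 (the mannose receptor CD206), Cd86 (a costimulatory molecule), Folr2 (a folate receptor) or Arg1 (arginase), and all but the Folr2 split were chosen after seeing the data. Mrc1 is also in the marker list of the macrophage gate, so that split is not independent of the gate. In cells with Mrc1, Nrp2 was at 364 and 361 CPM, and in cells without it at 531 and 286 CPM. In cells with Cd86 it was at 335 and 344 CPM, and in cells without it at 815 and 310 CPM. The log2 ratios were -0.01 (with Mrc1), -0.89 (without Mrc1), 0.04 (with Cd86) and -1.39 (without Cd86), so the libraries were level in cells with either marker and apart in the rest. Cells without Cd86 numbered 85 with control IgG and 1116 with anti-CD3L1. How the Nrp2 UMIs of a subset were spread over its cells was not examined, and the intervals do not cover a few high cells. The Folr2 split gave -0.40 with and -0.23 without the marker, and the Arg1 split -0.58 and -0.20.

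Nrp1 was higher with anti-CD3L1 on both sides of all 4 splits, with an interval that held 0 in cells with Folr2. It was at 53.7 and 63.2 CPM in cells with Mrc1 and at 21.8 and 56.2 CPM in cells without, with log2 ratios of 0.23 and 1.37. With control IgG, Nrp1 was thus higher and Nrp2 lower in cells with Mrc1 than in cells without. Sema4a was lower with anti-CD3L1 in all 8 subsets, its log2 ratios running from -0.48 in cells with Mrc1 to -1.51 in cells without. Cells without a marker were also shallower: without Mrc1 their median depth was 13110 and 7841 UMIs, against 14187 and 10719 UMIs with it. The part of depth in these splits was not tested.

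**Figure D3:**
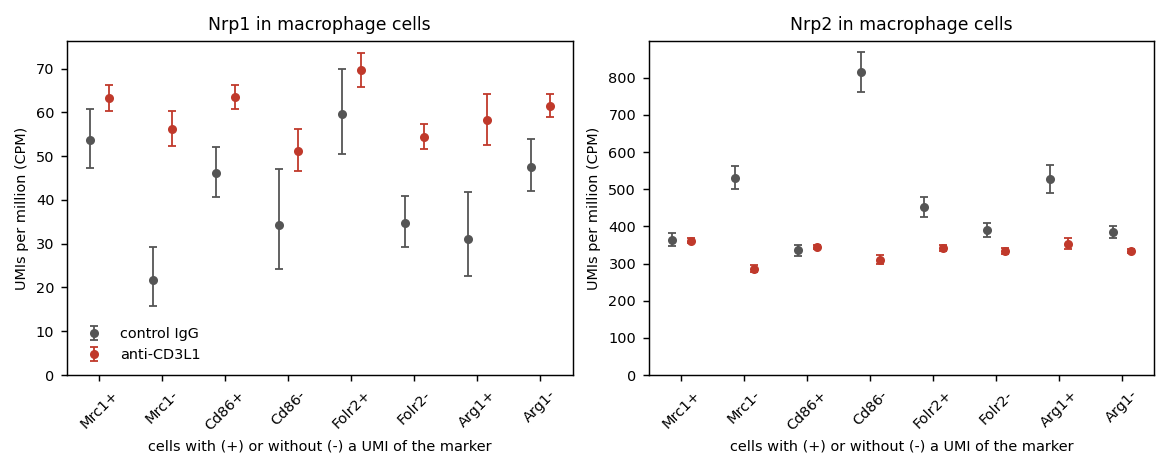
Levels of Nrp1 and Nrp2 in CPM (linear axes from 0) in macrophage-like cells with (+) or without (-) a UMI of 4 state markers, control IgG in grey and anti-CD3L1 in red, bars being exact 95% Poisson intervals. The 85 control IgG cells without Cd86 have the highest Nrp2, 815 CPM, and control IgG cells without Mrc1 have the lowest Nrp1, 21.8 CPM.

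In monocyte-like cells 2 of 7 members tested were past 2-fold higher with anti-CD3L1, beside 7.78% of all genes, and 0 were lower, beside 2.22%. Both were receptors. Nrp1 differed 4.19-fold, or by 2.07 (1.83 to 2.32) on the log2 scale, and Plxnd1 by 1.09 (0.90 to 1.28). The median of all 11213 genes tested was 0.20 in this class, and the median of the members was 0.23. Nrp2 at 0.24 (0.18 to 0.30) and Sema4d at 0.18 (0.11 to 0.24) lay close to the median of all genes, so that their difference from it was 0.04 and -0.02. Sema4a lay below it at -0.82 (-0.96 to -0.67). The intervals of Plxna1 and Plxnb2 held 0. Thinned to 1000 UMIs, 0.911% (0.417 to 1.72) of control IgG and 4.49% (3.73 to 5.36) of anti-CD3L1 monocyte-like cells had Nrp1. In B-like cells, which are few, the anti-CD3L1 library held 1 UMI of Nrp1 in 57 cells.

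Monocyte-like cells of the anti-CD3L1 library carried more of the macrophage list, 3355 CPM summed over its 8 genes against 1396 CPM with control IgG, and their own list was at 4550 and 5249 CPM. Within their own list Ly6c2 and Ccr2 were higher with anti-CD3L1, from 522 to 1041 and from 338 to 408 CPM. All other markers of the list were lower, Vcan from 438 to 177 and Thbs1 from 517 to 212 CPM. The part of these marker differences in the values of Nrp1 and Plxnd1 was not tested. Without the cells that detected at least 50% of another list, neutrophil markers included, Nrp1 was at 2.41, Plxnd1 at 0.85 and Nrp2 at -0.13 on the log2 scale. That step removed 729 of 989 control IgG and 523 of 2591 anti-CD3L1 monocyte-like cells.

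The promoters of Nrp1 and Plxnd1, the 2 members past 2-fold higher in monocyte-like cells, are shown beside that of Nrp2. They come from RefSeq on GRCm38.p6, 250 bases before to 50 after the start, 5′ to 3′ on the strand of the gene, at chr8:128358823-128359122 (plus strand), chr6:115994956-115995255 (minus strand) and chr1:62703067-62703366 (plus strand). Capitals mark GAGGAA or its reverse complement, the core that the myeloid factor PU.1 can bind.

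Nrp1: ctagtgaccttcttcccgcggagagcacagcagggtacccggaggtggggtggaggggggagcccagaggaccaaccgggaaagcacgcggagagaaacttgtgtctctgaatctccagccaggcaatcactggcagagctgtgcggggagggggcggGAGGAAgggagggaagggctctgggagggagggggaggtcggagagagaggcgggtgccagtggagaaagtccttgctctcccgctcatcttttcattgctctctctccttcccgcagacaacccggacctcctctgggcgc

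Plxnd1: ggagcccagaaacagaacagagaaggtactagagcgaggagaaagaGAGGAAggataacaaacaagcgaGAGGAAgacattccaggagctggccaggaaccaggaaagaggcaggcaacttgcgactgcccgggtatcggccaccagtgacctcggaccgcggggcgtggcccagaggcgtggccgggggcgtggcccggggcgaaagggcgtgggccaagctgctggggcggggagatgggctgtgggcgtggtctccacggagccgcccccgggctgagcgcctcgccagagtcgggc

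Nrp2: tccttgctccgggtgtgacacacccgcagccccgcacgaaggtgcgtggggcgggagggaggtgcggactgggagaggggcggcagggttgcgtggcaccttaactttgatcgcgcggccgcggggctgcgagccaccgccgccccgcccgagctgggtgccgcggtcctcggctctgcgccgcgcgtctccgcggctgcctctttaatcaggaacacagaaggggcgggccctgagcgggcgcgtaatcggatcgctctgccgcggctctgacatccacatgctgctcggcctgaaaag

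GAGGAA was found 1 time for Nrp1, 2 times for Plxnd1 and 0 times for Nrp2, counting both strands, and 28.3% of 32851 RefSeq promoters of this length held it. The GC box GGGCGG was found 1, 2 and 5 times, in the same order, and 35.7% of promoters held it. None of the 3 held TATAAA, which 13.6% of promoters held. A match describes these letters and is no evidence of binding.

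In neutrophil-like cells 5 of 8 members tested were past 2-fold higher with anti-CD3L1, beside 31.3% of all genes, and Plxna4 was past 2-fold lower, beside 3.64%. The median of all genes was itself 0.65 on the log2 scale here, and that of the members 1.26. Nrp1 had a log2 ratio of 3.15 (2.71 to 3.59), Plxnd1 of 1.84 (1.49 to 2.18), Plxna1 of 1.51, Plxnb2 of 1.31 and Nrp2 of 1.21 (1.06 to 1.35). Sema4d had 0.50 (0.43 to 0.57), under the median of all genes, and Sema4a -0.21 (-0.40 to -0.03). Plxna4 rested on 58 and 2 UMIs, and its interval held 0 (-1.24, -4.32 to 0.68). With at least 6 neutrophil markers required its ratio was 2.28 instead, on only 6 and 2 UMIs. The intervals of its level in those cells overlapped, 0.065 to 0.38 CPM with control IgG and 0.10 to 3.10 CPM with anti-CD3L1. With the median of all genes set to 0, 3 members were past 2-fold, Nrp1 (2.50) and Plxnd1 (1.19) higher and Plxna4 (-1.89) lower. The share of all genes past 2-fold was not computed on that scale.

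Most neutrophil-like cells gave no UMI of either neuropilin at their median depths of 4610 and 2442 UMIs. Nrp1 was not counted in 98.8% of control IgG and 94.0% of anti-CD3L1 cells, and Nrp2 in 93.6% and 84.3%, which does not show that these cells lack the genes. Macrophage markers summed to 510 CPM in control IgG and to 2017 CPM in anti-CD3L1 neutrophil-like cells, and their part in the receptor values was not tested. In the cells with at least 6 of 8 neutrophil markers, a gate chosen after seeing the data, Nrp1 was at 1.97 and 27.0 CPM and Nrp2 at 26.2 and 109 CPM. Sema4d was not counted in 24.0% and 25.6% of the cells of the class.

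NK-like cells had 4 members with at least 50 UMIs, and 0 were past 2-fold in either direction, beside 5.63% of all genes higher and 1.36% lower. Sema4d was lower with anti-CD3L1, with a log2 ratio of -0.35 (-0.53 to -0.17). The intervals of Nrp2, Plxnd1 and Sema4a held 0. In dendritic-like cells 1 of 7 members was past 2-fold higher, beside 8.59% of all genes, and 0 were lower, beside 2.99%. That member was Plxna1, on 1 and 64 UMIs (2.24, -0.29 to 7.57), and it was level with classes set by the mean z score of their markers. Sema4a was lower, at -0.59 (-1.01 to -0.14), and the intervals of the other members tested held 0. Only 42 control IgG cells stood behind these ratios, of which 18 were plasmacytoid dendritic-like, against 185 of 727 with anti-CD3L1.

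Levels over all kept cells mix the classes, whose shares of cells differed between the libraries, and the part of that mix was not tested. Sema4d was at 346 CPM with control IgG and 217 CPM with anti-CD3L1, although it was higher with anti-CD3L1 in both monocyte-like and neutrophil-like cells. Less the median of all genes in each class, its log2 ratios there were -0.02 and -0.15, and in NK-like cells Sema4d was lower. Neutrophil-like cells held 72.9% of Sema4d UMIs and 70.5% of Sema4a UMIs with control IgG, and 9.20% and 8.27% with anti-CD3L1. Nrp2 was at 165 and 263 CPM over all cells, being lower with anti-CD3L1 in macrophage-like cells and higher in monocyte-like and neutrophil-like cells. Macrophage-like cells held 25.2% of its UMIs with control IgG and 56.4% with anti-CD3L1. Nrp1 was at 10.1 and 49.0 CPM over all cells, and it was also higher with anti-CD3L1 within macrophage-like, monocyte-like and neutrophil-like cells. Over all kept cells the median log2 ratio of all genes was 0.71, beside 0.67 for Nrp2, 2.28 for Nrp1 and -0.68 for Sema4d. Nrp2 thus lay close to that median.

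**Figure D4:**
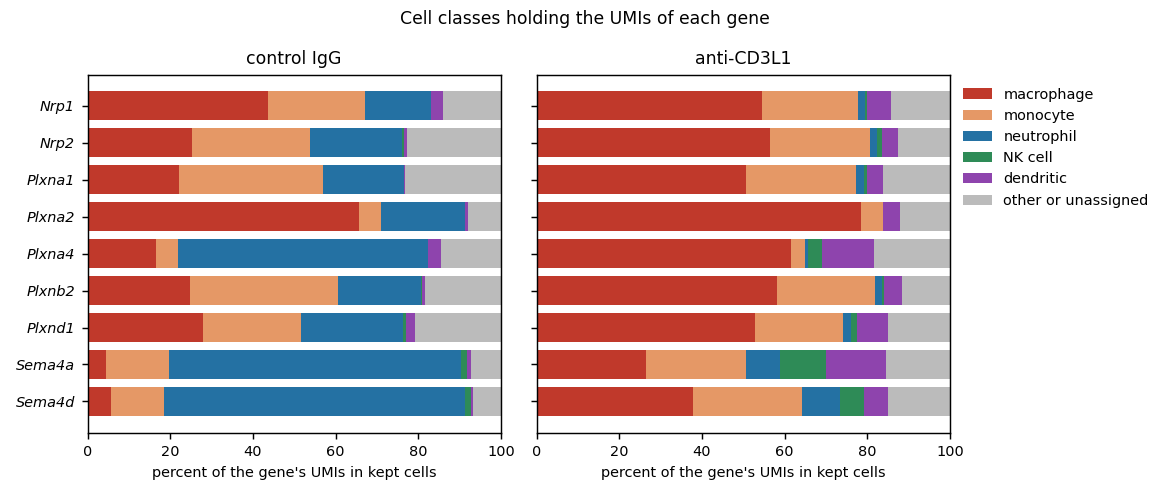
Percent of each gene's UMIs in kept cells that lay in each cell class, control IgG on the left and anti-CD3L1 on the right, each bar summing to 100. The ligands Sema4a and Sema4d lie mostly in neutrophil-like cells with control IgG, where they hold 70.5% and 72.9%, and are spread over several classes with anti-CD3L1.

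Among the other genes of the families, 8 of 22 reached 50 UMIs in macrophage-like cells, with 1 past 2-fold higher and 2 lower, beside 6.00% and 3.04% of all genes, and a median log2 ratio of -0.18. Sema6a, a ligand of A-type plexins, was higher at 2.52 on 2 and 73 UMIs. Sema4c and Sema7a, a membrane-anchored semaphorin that binds Plxnc1 and integrins, were lower at -1.69 and -1.08. Plxnc1 had 0.56 (0.40 to 0.72) in macrophage-like cells. It was past 2-fold higher in monocyte-like cells, at 1.52 (1.35 to 1.69) from 28.0 to 80.2 CPM. Sema7a only just reached the 2-fold cutoff there, from 2.42 to 4.84 CPM, so that its place in the count hangs on the cutoff. In monocyte-like cells these were the 2 of 5 family genes past 2-fold higher, beside 7.78% of all genes. Neutrophil-like cells had 3 of 6 past 2-fold higher, beside 31.3%, and NK-like cells 0 of 6, beside 5.63%. Dendritic-like cells had 2 of 7 higher and 1 lower, beside 8.59% and 2.99%.

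Of the 41 partners 37 were tested in macrophage-like cells, where 4 were past 2-fold higher and 4 lower, beside 6.00% and 3.04% of all genes, with a median of -0.03. Flt1, the VEGF receptor that also binds Pgf, was highest at 3.64 (2.27 to 5.53), from 0.593 to 7.40 CPM on 4 and 318 UMIs. Mical2, an actin-oxidizing enzyme downstream of plexins, had 1.45 (1.05 to 1.88). Vegfc, a ligand of Nrp2, was lowest at -3.78 (-4.53 to -3.07), from 8.00 to 0.582 CPM. Rnd1, a GTPase that binds plexins, had -1.54 (-1.86 to -1.21). Itpripl1, the mouse gene of CD3L1, was at 7.71 and 5.23 CPM with a log2 ratio of -0.56 and an interval below 0. In monocyte-like cells 4 of 35 partners were past 2-fold higher (Flt1, Kdr, Hgf and Mical2) and Vegfc was lower at -1.76. Over all genes 7.78% were higher and 2.22% lower in that class. Neutrophil-like cells had 12 of 34 higher and 2 lower, beside 31.3% and 3.64% of all genes, so the higher share was near its background. NK-like cells had 2 of 27 higher and 1 lower, beside 5.63% and 1.36%. Dendritic-like cells had 1 of 31 higher and 2 lower, beside 8.59% and 2.99%.

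The genes whose levels ran most like each neuropilin and Plxna4 were sought over 14 profiles of a class in a library, each with at least 50 cells, among 14949 genes. For Nrp2 they were Creb5 (Pearson r = 0.958), Car13 (0.957), Arhgef2 (0.952), Tmcc2 (0.950) and Kcnk13 (0.936). For Nrp1 they were Amz1 (0.883), Fyco1 (0.877), Fcgrt (0.876), Hs6st1 (0.872) and Zfpm2 (0.859). For Plxna4 they were Tnfsf15, Rab38, Fxyd2, Mab21l3 and Bcas1, from 0.903 to 0.877. The profiles share libraries and depth, and these values only describe likeness. Nrp2 was not among the 5 genes most like Nrp1, nor Nrp1 among those most like Nrp2.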

How the data were processed

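The deposited data are whole UMI counts per gene and barcode in 2 matrices, which the authors made with Cell Ranger 7.1.0 and which still hold 1084690 (control IgG) and 1548857 (anti-CD3L1) barcodes. The submitters' processing notes also name Seurat 5.1.0 and GRCm39. The files carry no build, and the sources used here do not say whether intronic reads were counted. A deposited table of macrophage fold changes and p-values from the authors' own comparison was not used.

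Barcodes with at least 500 UMIs, more than 200 and fewer than 6000 genes and under 5% mitochondrial UMIs were kept. Total UMIs were 74850604 and 108246719, and median mitochondrial shares in kept cells 0.350% and 1.40%. A cell took the class of which it detected the largest share of 8 markers, with at least 3 and no tie (15 classes, and 119 of 120 markers were listed). Dendritic-like cells pool 4 gates. Cells were not clustered, so these names can differ from the study's. No doublet caller was run, and cells that detected at least 50% of another list were left out in an alternative.

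UMIs were summed per class and library and given as CPM (per 1000000 UMIs) with exact Poisson 95% intervals. Ratios have exact binomial intervals conditional on the sum, shares exact Clopper-Pearson intervals, and a count of 0 takes a floor of 3 UMIs per class and library. Genes with at least 50 UMIs in the 2 libraries together were compared, and past 2-fold was counted. With 1 library per group there was no test and no p-value. Shares of cells were taken after thinning to 1000 UMIs, leaving out shallower cells (480 of 483 and 4326 of 4365 macrophage-like cells stayed). The scripts were tested on simulated data. Likeness was Pearson's r of log2(CPM + 1), marker genes left out. The named genes were all 9 members, the 3 highest and 3 lowest other listed genes in macrophage-like cells, Itpripl1, and the 5 genes most like Nrp1, Nrp2 and Plxna4; Plxnc1, Sema7a, Kdr and Hgf were named after their values were seen. The members and lists were chosen with earlier results of these data known. Promoters were matched by symbol (7 of 9 members). Python 3.11.15, numpy 2.4.6, scipy 1.17.1, pandas 2.3.3 and matplotlib 3.10.9 were used.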

Additional observations from a re-analysis of the deposited data

Results flagged for a closer look

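Nrp2 differed between the libraries in opposite directions in 2 cell classes. The log2 ratio, with control IgG as the denominator, was -0.30 in macrophage-like cells and 0.24 in monocyte-like cells, and both counting intervals excluded 0. With 1 library per group the difference between the classes was not tested. The opposite directions did not hold under every alternative. Nrp2 turned to -0.13 in monocyte-like cells without mixed cells, and to 0.037 in macrophage-like cells with a UMI of Cd86. In other alternatives it kept its direction but was small. It was at 0.044 in monocyte-like cells with the median of all genes set to 0. In macrophage-like cells it was at -0.020 after thinning to 1000 UMIs. The median of all genes was 0.01 and 0.20 in the same classes.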

How the results depend on the processing

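No paired analysis was possible because each group had 1 library, and for the same reason no replicate could be left out. Over 470 recomputed log2 ratios of members 424 kept their direction, 352 stayed inside the counting interval, 113 moved outside it and 5 turned a difference past 2-fold around; the cause was not tested. Those 5 were Plxna4 in neutrophil-like cells, -1.24 as reported, which was 2.92 with classes by z score, 1.21 as a mean over cells, 3.13 thinned to 1000 UMIs and 2.28 with at least 6 neutrophil markers, and Plxna1 in dendritic-like cells, -0.037 by z score. The Plxna4 value with at least 6 neutrophil markers rested on 6 and 2 UMIs. Leaving out cells with 50% of the markers of another list, thinning to 1000 UMIs, and the splits by Mrc1, Arg1, Cd86 and Folr2 changed most of the values below. Subtracting free RNA moved neither neuropilin outside its interval in macrophage-like or monocyte-like cells. The splits by Mrc1, Arg1 and Cd86, the gate of 6 neutrophil markers, the mixed cells judged without neutrophil markers and the equal weighting of dendritic gates were chosen after seeing the data.

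In macrophage-like cells Nrp2, -0.30 as reported, was -0.049 by z score, -0.74 without mixed cells, -0.14 as a mean over cells, -0.020 thinned, -0.40 and -0.23 with and without Folr2, -0.011 and -0.89 with and without Mrc1, -0.58 and -0.20 with and without Arg1, and 0.037 and -1.39 with and without Cd86. Nrp1, 0.46 as reported, was 0.11 thinned, 0.22 and 0.65 with and without Folr2, 0.23 and 1.37 with and without Mrc1, and 0.90 with Arg1. In monocyte-like cells Nrp2, 0.24 as reported, was 0.42 by z score, -0.13 without mixed cells, 0.18 when scaled without the 50 most abundant genes, 0.044 with the median of all genes at 0 and 0.13 thinned. Nrp1, 2.07 as reported, was 2.41 without mixed cells and 2.44 thinned.

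Members past 2-fold in macrophage-like cells, 1 as reported, were 0 without cells mixed by lists other than neutrophil, 0 without Folr2 and without Arg1, 2 without Mrc1 and 3 without Cd86. Of those 3, Plxna4 rested on 2 and 52 UMIs, with 85 control IgG cells in that subset. In monocyte-like cells, 2 as reported, they were 1 without mixed cells and 1 thinned, and 3 with a minimum of 20 UMIs. In neutrophil-like cells, 6 as reported, they were 3 with the median at 0 and 1 thinned, where fewer genes reach 50 UMIs. In NK-like cells, 0 as reported, they were 1 without mixed cells. That member was Nrp2, which ran from -0.13 to 1.42 over 11 alternatives in NK-like cells, against 0.17 as reported. In dendritic-like cells, 1 as reported, members past 2-fold were 3 by z score, 2 without mixed cells and 0 thinned. The share of all genes past 2-fold was not computed under these alternatives, so these counts have no background beside them. Sema4a was lower with anti-CD3L1 in macrophage-like cells under all 19 alternatives (-1.51 to -0.48) and in monocyte-like cells under all 11 (-1.02 to -0.63), and Nrp1 was higher in monocyte-like cells under all 11 (1.87 to 2.44).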

Other observations

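The small gates were compared in no ratio above. In the anti-CD3L1 library 34 fibroblast-like cells had Nrp1 at 132 CPM (105 to 164) and Plxna2 at 33.8 CPM (20.9 to 51.7), both above the macrophage-like levels of that library, and Sema4d at 4.83 CPM, below them. The control IgG library held 1 such cell. The 7 endothelial-like cells of the anti-CD3L1 library held 26 UMIs of Nrp1, 27 of Nrp2, 13 of Plxna2, 24 of Plxna4 and 20 of Plxnd1. Their levels of Nrp1, Plxna2, Plxna4 and Plxnd1 were above the macrophage-like ones of that library, on very few cells. The control IgG library had 0 endothelial-like cells. Innate lymphoid-like cells had Nrp1 at 28.2 CPM (13.5 to 51.8) with control IgG and 58.6 CPM (46.9 to 72.4) with anti-CD3L1, with a log2 ratio of 1.06 (0.11 to 2.17) on 10 and 86 UMIs.

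Plasmacytoid dendritic-like cells had Nrp2 at 183 CPM (132 to 247) in 18 control IgG cells and at 29.3 CPM (21.5 to 38.9) in 185 anti-CD3L1 cells. Type 2 dendritic-like cells went the other way, with 1 UMI of Nrp2 in 7 control IgG cells, or 9.12 CPM (0.231 to 50.8), and 170 CPM (156 to 185) in 278 anti-CD3L1 cells.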
